A study of Homo sapiens with 18 samples.

Results

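RCAN1 and the genes of the calcineurin-NFAT axis were followed in THP-1 cells, a human acute monocytic leukaemia line, by 3′ mRNA sequencing. The set held 10 genes: the calcineurin regulators RCAN1 and RCAN3, the calcineurin subunits PPP3CA, PPP3CB, PPP3CC and PPP3R1, and the transcription factors NFATC1, NFATC2, NFATC3 and NFAT5. Members were found by matching their symbols to the Ensembl identifiers of a count table of 63677 genes, and all 10 were among the 16678 genes that passed the filter on low counts. RCAN1 was selected on measured values, namely its higher level in SCR than in WT without LPS, so its values in those 6 libraries are given as a description, with no test.

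The cells fell into 6 groups of 3 libraries. KD cells received 25 nM of an siRNA against TRAFD1, and SCR cells received 25 nM of a scrambled control siRNA whose sequence the supplier does not disclose. For WT the sources differ, with the series text calling these cells untreated and the sample text giving them transfection mix that lacked siRNA. The effect of the reagent and that of an siRNA therefore cannot be told apart between WT and the other groups. At 72 h after transfection, cells of each kind received medium alone (unstimulated) or LPS, a bacterial cell wall component that activates NF-kB, at 10 ng/ml for 4 h. All groups are parallel cultures of 1 cell line, so p-values measure the spread between cultures.

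Calcineurin is a phosphatase that is switched on by calcium and calmodulin. It removes phosphates from NFAT proteins, which then enter the nucleus and bind DNA at sequences with a GGAAA core. RCAN1 binds calcineurin and restrains it, and transcription from an internal RCAN1 promoter is itself driven by NFAT, which closes a feedback loop. NFAT5 is the exception in the family, since it responds to osmotic stress and lacks the domain that calcineurin acts on.

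RCAN1 (ENSG00000159200) spans chr21:35885440-35987412 on the minus strand of GRCh37. The annotation gives it 14 transcripts, 10 of them protein coding, whose starts lie in an outer group, the farthest at 35987412, and an inner group that includes 35899261. Only a short stretch at the end of each gene was counted, so transcripts from the outer and inner starts cannot be told apart in these counts. The end at 35885440 belongs to a transcript with no defined coding sequence, whereas most coding transcripts end between 35888740 and 35888782. Which end was counted for RCAN1 could not be worked out, so its counts may not represent the coding transcripts. Windows of 250 bases before 6 RefSeq starts of RCAN1 were searched for GGAAA on both strands (read as TTTCC on the opposite strand). The core was found in 1 of the 6 windows, an inner one at chr21:35899121-35899370, which held 4 matches. Of its 250 bases, 141 lie in annotated exon, downstream of the start at 35899261. The 3 outer windows and the other 2 inner ones held 0. Of 35116 windows of this length before RefSeq starts, 1.87% held at least as many and 55.6% held at least 1. Those shares are for single windows, whereas this window had the most matches of the 6, and base composition was not matched. The 109 bases of that window that lie upstream of every annotated exon hold 3 of the matches and are shown because this is the NFAT-driven kind of promoter described above. They lie at chr21:35899262-35899370 on the minus strand of GRCh37, from a RefSeq window of GRCh38.p14 that matched GRCh37 once. Capitals mark the cores, and the letters are a description rather than evidence of binding.
RCAN1 inner promoter: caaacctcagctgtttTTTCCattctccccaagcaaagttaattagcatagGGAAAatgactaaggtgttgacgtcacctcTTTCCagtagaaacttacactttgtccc

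The siRNA itself was compared with the members, because a short match of its seed to a 3′ untranslated region can lower a gene other than the target. The first sequence below is the TRAFD1 target of the siRNA, with the 7 bases that pair with the seed (bases 2 to 8 of the guide strand) in capitals. Sites were counted in the transcript of each gene that held the most. Of the 10 members, PPP3CA held 3 such sites and RCAN3 held 1, whereas RCAN1 and the other 7 held 0. Shorter PPP3CA transcripts held fewer than 3, and which transcripts were counted is not known. The sites are shown with their flanks, as 29 bases of the GENCODE v44lift37 transcripts.
TRAFD1 siRNA target: cccagccgacccaTTAACAAt
PPP3CA site 1: atcaaacatttTTAACAAaatgatgtaca
PPP3CA site 2: attcatattttTTAACAAttgtataagtg
PPP3CA site 3: ttgcatttgtaTTAACAAgaaatttgtat
RCAN3 site: aaccgtaacacTTAACAAggatagtcaca

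Among 12453 tested genes with an annotated 3′ untranslated region, 19.1% held at least 1 site and 0.932% held at least 3. The median log2 difference of KD from SCR over the 116 genes with at least 3 sites was -0.06 without LPS and 0.04 with LPS, against -0.003 and 0.02 over genes with 0 sites. Genes with at least 1 site had longer untranslated regions, with a median of 3243 bases against 1222 bases, and length was not adjusted for. Whether the sites bear on PPP3CA, whose values follow, was not tested.

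Library totals ran from 8206023 to 22344279 counts. The 8 monocytic marker genes were all expressed, with a summed level of 426 to 546 CPM (counts relative to the library total, scaled by TMM), and T cell, erythroid and epithelial markers summed to at most 0.668 CPM and B cell markers to at most 4.28 CPM. The targeted gene TRAFD1 fell in KD against SCR without LPS, from 23.7 ± 3.38 to 8.67 ± 3.14 CPM (SD, n = 3 each; adjusted p = 0.0277, edgeR quasi-likelihood test). With LPS it was at 22.7 ± 4.42 CPM in SCR and 14.5 ± 1.12 CPM in KD, a difference that did not pass the threshold of 0.05 (adjusted p = 0.262). In WT, LPS raised the cytokine genes TNF, to 141 ± 11.1 CPM, and IL1B, from 1.79 ± 0.189 to 29.2 ± 8.81 CPM, and raised NFKBIA, the NF-kB inhibitor, from 252 ± 13.8 to 1383 ± 56.3 CPM.

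RCAN1 was lowest in unstimulated WT cells. The 3 WT libraries without LPS stood at 48.6, 50.5 and 52.3 CPM. The 3 SCR libraries stood at 120.2, 107 and 99.3 CPM, and the 3 KD libraries at 79.0, 86.3 and 80.7 CPM. The 3 groups did not overlap, and KD lay between WT and SCR. SCR exceeded WT by 1.11 on the log2 scale (SE 0.10), KD exceeded WT by 0.70 (SE 0.10), and KD was below SCR by a log2 difference of -0.41 (SE 0.10). These values include the libraries on which RCAN1 was selected and carry no test.

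With LPS, RCAN1 stood at 133, 139 and 127 CPM for WT, at 140.0, 164 and 140.3 CPM for SCR, and at 96.7, 108 and 101 CPM in KD. Every KD library was below every WT and every SCR library. None of these 9 libraries was used to select RCAN1. RCAN1 fell in KD against WT by 0.38 on the log2 scale (SE 0.10, adjusted p = 0.0154), which is 23.1% lower. That call was lost without WT replicate 5 (adjusted p = 0.0533), WT replicate 6 (0.0510), KD replicate 4 (0.0664) or KD replicate 6 (0.0506). KD against SCR differed by -0.54 (SE 0.09), which is 31.0% lower, with adjusted p = 0.0659, just short of the threshold in a comparison where 0 of 16678 genes passed. The same difference passed with DESeq2 (adjusted p = 5.5e-05), with the 6 libraries fitted alone (0.0212), with no filter on low counts (0.00140) and with the replicate number as a block (0.0142). These fits called 167, 161, 425 and 85 genes in all, in that order. The difference did not pass with RLE size factors or library totals (adjusted p up to 0.0645). Leaving out any 1 of the 6 libraries from the edgeR fit gave adjusted p from 0.0925 to 0.393. SCR against WT differed by 0.16 (SE 0.09, adjusted p = 0.470).

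**Figure D1:**
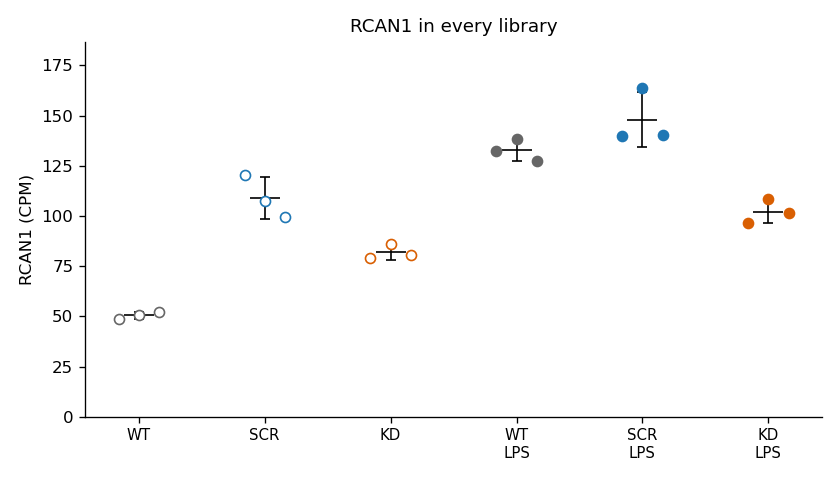
RCAN1 level in CPM (vertical axis) in each of the 18 libraries, by group (horizontal axis), with open points for unstimulated and filled points for LPS libraries and with the group mean and SD (n = 3) in black. WT rises from a mean of 50.4 to 133 CPM, whereas KD starts at 82.0 and reaches 102 CPM.

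In order of their means, the groups ran from unstimulated WT at 50.4 ± 1.87 CPM through unstimulated KD at 82.0 ± 3.78, KD with LPS at 102 ± 5.79, unstimulated SCR at 109 ± 10.5 and WT with LPS at 133 ± 5.57 to SCR with LPS at 148 ± 13.6 (SD, n = 3 each). The neighbours KD with LPS and unstimulated SCR overlapped in their libraries. All other neighbours in that order were apart, although the gap between WT and SCR with LPS was from 139 to 140.0 CPM and did not pass the test given above.

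The response of RCAN1 to LPS was larger in WT than in SCR and KD. On the log2 scale LPS libraries exceeded unstimulated ones by 1.40 in WT (SE 0.10), by 0.44 in SCR (SE 0.09) and by 0.32 in KD (SE 0.10). Only the KD comparison is free of the libraries that selected RCAN1, and there RCAN1 rose with adjusted p = 0.0345. This rise was lost when KD unstimulated replicate 1 (adjusted p = 0.0620) or 3 (0.106), or KD LPS replicate 5 (0.159) or 6 (0.0776), was left out, and with the library totals alone (0.0797), no filter (0.118) or the 6 libraries alone (0.131). The LPS response in SCR was smaller than that in WT by 0.96 on the log2 scale (SE 0.13), and that in KD was smaller than that in SCR by 0.12 (SE 0.13). Both rest in part on the selecting libraries and carry no test.

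The other 9 members were compared in the same way. In KD against SCR without LPS, 0 of the 9 passed the edgeR test, where 0.066% of all genes tested did, and 3 of the 9 were under an unadjusted p of 0.05, where 12.6% of all genes were. With LPS the count was again 0 of 9, where 0% of all genes passed, and 3 of the 9 were under an unadjusted p of 0.05, where 11.8% of all genes were. In SCR against WT, 0 of 9 passed without LPS, where 3.23% of all genes did, and 0 of 9 with LPS, where 0.114% did. An unadjusted p under 0.05 was reached by 2 of these 9 without LPS, where 17.2% of all genes reached it, and by 0 with LPS, where 13.7% did.

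DESeq2 called more genes than edgeR in these 4 comparisons. In KD against SCR it called 0 of the 7 members to which it gave an adjusted p without LPS (2.92% of all such genes) and 0 of 6 with LPS (2.18%). In SCR against WT it called 0 of 9 without LPS (6.44%) and 0 of 8 with LPS (2.11%). RCAN3 and NFAT5 were among the members left without an adjusted p in KD against SCR. In SCR against WT with LPS, the comparison in which the replicate numbers paired the libraries, the replicate block called 0 of the 9 and 0.809% of all genes.

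In KD against WT, 2 of the 9 members passed without LPS, where 11.7% of all genes did, and both fell. They were PPP3CA and PPP3R1, the alpha catalytic subunit of calcineurin and its calcium-binding regulatory subunit. With LPS 1 of the 9 passed, where 10.8% of all genes did, and this was PPP3R1. The count with LPS was 2 with RLE size factors, library totals or DESeq2 and 3 with the replicate block or the 6 libraries alone. PPP3R1 passed in each of these fits, so at least 1 further member passed there too. These comparisons combine the TRAFD1 siRNA with having received any siRNA, and among 9 members shares of this size correspond to about 1 gene.

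PPP3CA (ENSG00000138814, chr4:101944566-102269435) stood without LPS at 204, 169 and 169 CPM for WT, at 145, 152 and 162 CPM for SCR and at 131, 130.0 and 121 CPM in KD. The 3 groups did not overlap, and KD was lowest. The fall in KD against WT was 0.51 on the log2 scale (SE 0.10, adjusted p = 0.00174), and the call was lost with the 6 libraries fitted alone (adjusted p = 0.0733). KD differed from SCR by -0.26 (SE 0.10, adjusted p = 0.247). With LPS, PPP3CA stood at 187, 166 and 151 CPM for WT, at 197, 183 and 186 CPM for SCR and at 151, 163 and 164 CPM in KD. The KD libraries were again below every SCR library, by a log2 difference of -0.24 (SE 0.10, adjusted p = 0.326), and overlapped those of WT. PPP3CA is the member with up to 3 seed sites per transcript, shown above, and a link of the sites to these values was not tested.

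LPS raised PPP3CA in SCR, by 0.30 on the log2 scale (SE 0.10, adjusted p = 0.0330), and in KD, by 0.32 (SE 0.10, adjusted p = 0.0332), while the difference in WT was -0.11 (SE 0.10, adjusted p = 0.533). The call in SCR held without SCR unstimulated replicate 3 and was lost without any other of the 6 libraries (adjusted p from 0.0534 to 0.131), with library totals (0.0743) and with no filter (0.0744). The call in KD was lost without KD unstimulated replicate 2 (0.0537) or 3 (0.130), or KD LPS replicate 5 (0.114) or 6 (0.102), and with library totals (0.0667), no filter (0.0755) or the 6 libraries alone (0.107). The difference between the LPS responses of SCR and WT was 0.41 (SE 0.14, adjusted p = 0.358), so the responses were not shown to differ.

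PPP3R1 (ENSG00000221823, chr2:68405989-68483369) stood without LPS at 163, 183 and 175 CPM for WT, at 132, 174 and 147 CPM for SCR and at 119, 131 and 132 CPM in KD. With LPS it stood at 141, 123 and 137 CPM for WT, at 103, 138 and 141 CPM for SCR and at 109, 94.5 and 96.9 CPM in KD. The KD libraries were below all WT libraries in both states. The fall in KD against WT was 0.45 on the log2 scale without LPS (SE 0.12, adjusted p = 0.0166), lost without WT unstimulated replicate 3 (adjusted p = 0.0579) and with the 6 libraries fitted alone (0.104). With LPS the fall was 0.42 (SE 0.12, adjusted p = 0.0285), lost without WT replicate 4 (0.0944) or 6 (0.117) or KD replicate 5 (0.120) or 6 (0.0909). LPS lowered PPP3R1 in WT by 0.38 (SE 0.12, adjusted p = 0.0346), a call that held without WT unstimulated replicate 1 and was lost without any other of the 6 libraries (adjusted p from 0.0623 to 0.150) and with RLE size factors (0.0512). PPP3R1 differed between KD and SCR by -0.24 without LPS (adjusted p = 0.397) and -0.35 with LPS (adjusted p = 0.255).

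The remaining catalytic subunits passed in no comparison of the main edgeR fit. PPP3CB, the beta subunit, ranged only from 33.6 to 45.2 CPM over the 18 libraries. PPP3CC, the gamma subunit, ranged from 6.28 to 13.9 CPM. Its 3 KD libraries with LPS, at 13.7, 13.9 and 13.0 CPM, were all above the unstimulated KD libraries of 11.9, 6.28 and 8.63 CPM, with a log2 difference of 0.60 (SE 0.21, adjusted p = 0.0734). They were also above the WT libraries with LPS, at 9.24, 10.5 and 7.05 CPM, again by 0.60 (SE 0.21, adjusted p = 0.0778). An antisense gene overlaps the end of PPP3CC, and whether counting used strand is not stated, so reads of the pair cannot be told apart.

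**Figure D2:**
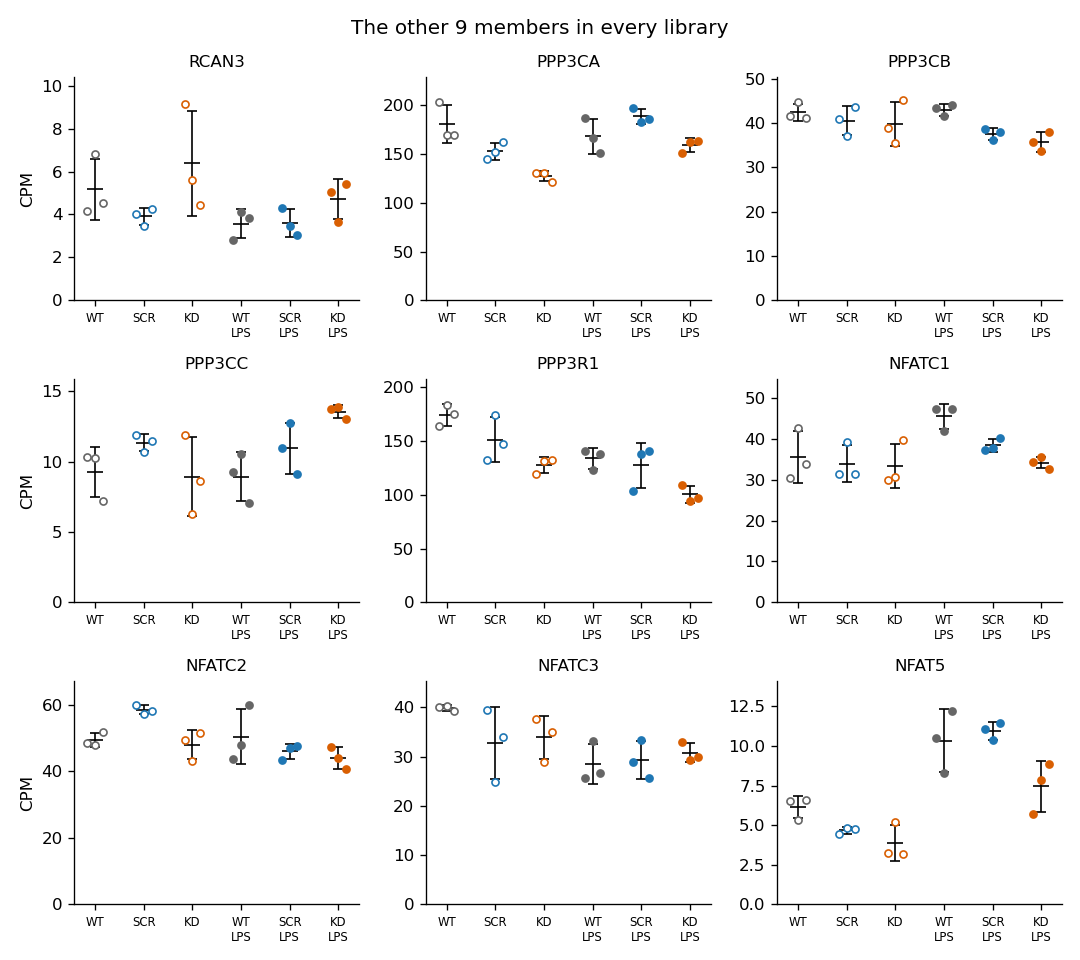
Level in CPM (vertical axes, each from 0) of the other 9 members in each library, by group, with open points for unstimulated and filled points for LPS libraries and the mean and SD (n = 3) in black. NFAT5 is higher with LPS in WT, SCR and KD, and without LPS the means of PPP3CA and PPP3R1 are lowest in KD.

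LPS changed a few members in each kind of cell. In WT 3 of the 9 passed, where 14.3% of all genes did: NFAT5 rose, and PPP3R1 and NFATC3 fell. In SCR 3 of the 9 passed, where 17.2% did: NFAT5 and PPP3CA rose and NFATC2 fell. In KD 2 of the 9 passed, where 11.5% did, and NFAT5 and PPP3CA rose. The difference in LPS response between KD and SCR passed for 0 of 9 members (0% of all genes) and that between SCR and WT for 0 of 9 (0.234% of all genes). An unadjusted p under 0.05 was reached by 1 of the 9 (7.64% of all genes) and by 2 of the 9 (9.96%). DESeq2 called 0 of 9 in both, against 0% and 0.424% of all genes.

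NFAT5 (ENSG00000102908, chr16:69598997-69738569), the osmotic stress factor, was the 1 gene of the 9 that passed with LPS in all 3 kinds of cell. In WT it stood at 6.50, 5.36 and 6.58 CPM without LPS and at 10.5, 8.27 and 12.2 CPM with LPS. In SCR it stood at 4.44, 4.84 and 4.77 CPM without and at 11.1, 10.4 and 11.5 CPM with LPS. In KD it stood at 3.22, 5.21 and 3.19 CPM without and at 5.68, 7.86 and 8.84 CPM with LPS. In each kind of cell every LPS library was above every unstimulated one, although the gene had only 41 to 162 counts per library. The rise was 0.74 on the log2 scale in WT (SE 0.22, adjusted p = 0.0239), 1.23 in SCR (SE 0.22, adjusted p = 0.000531) and 0.96 in KD (SE 0.23, adjusted p = 0.00790).

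The SCR call for NFAT5 held under every alternative run. The KD call was lost only with the 6 libraries alone (adjusted p = 0.0949). The WT call held without WT LPS replicate 5 and was lost without any other of the 6 libraries (adjusted p from 0.0518 to 0.133) and with no filter (0.0517). In KD against SCR with LPS, NFAT5 differed by -0.55 (SE 0.21, adjusted p = 0.317), and the KD and SCR libraries did not overlap. A gene on the same strand, ENSG00000260772, overlaps the end of NFAT5, so reads may be shared.

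The calcium-regulated factors showed smaller differences. NFATC3 stood at 40.0, 40.3 and 39.3 CPM in unstimulated WT and at 25.7, 33.2 and 26.7 CPM with LPS. Its fall in WT was 0.48 on the log2 scale (SE 0.15, adjusted p = 0.0384), a call that held without WT LPS replicate 5 and was lost without any other of the 6 libraries (adjusted p from 0.0800 to 0.160). In SCR and KD the groups overlapped, with log2 differences of -0.17 and -0.14. An antisense gene and ESRP2 overlap the end of NFATC3, so its counts may be shared.

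NFATC2 fell with LPS in SCR, from 60.0, 57.4 and 58.1 CPM to 43.5, 47.0 and 47.8 CPM. The fall was 0.34 on the log2 scale (SE 0.11, adjusted p = 0.0417), and the call was lost without any 1 of the 6 libraries (adjusted p from 0.0725 to 0.160), with RLE size factors (0.0506) and with no filter (0.119). In WT the difference was 0.03 (SE 0.11) and in KD -0.13 (SE 0.11). NFATC1 ranged from 30.0 to 47.3 CPM and passed in no comparison of the main edgeR fit. Its KD libraries with LPS, at 34.4, 35.5 and 32.6 CPM, were below the WT libraries of 47.3, 41.9 and 47.2 CPM, with a log2 difference of -0.41 (SE 0.14, adjusted p = 0.0573).

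RCAN3, the RCAN1 paralogue, was expressed at 2.82 to 9.13 CPM from 29 to 136 counts per library. It passed in no comparison of the main edgeR fit. It stood without LPS at 9.13, 5.62 and 4.43 CPM in KD and at 4.04, 3.47 and 4.24 CPM in SCR. KD was higher by 0.71 on the log2 scale (SE 0.28, adjusted p = 0.287), opposite in sign to the RCAN1 difference of -0.41. RCAN3 holds 1 seed site, shown above.

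**Figure D3:**
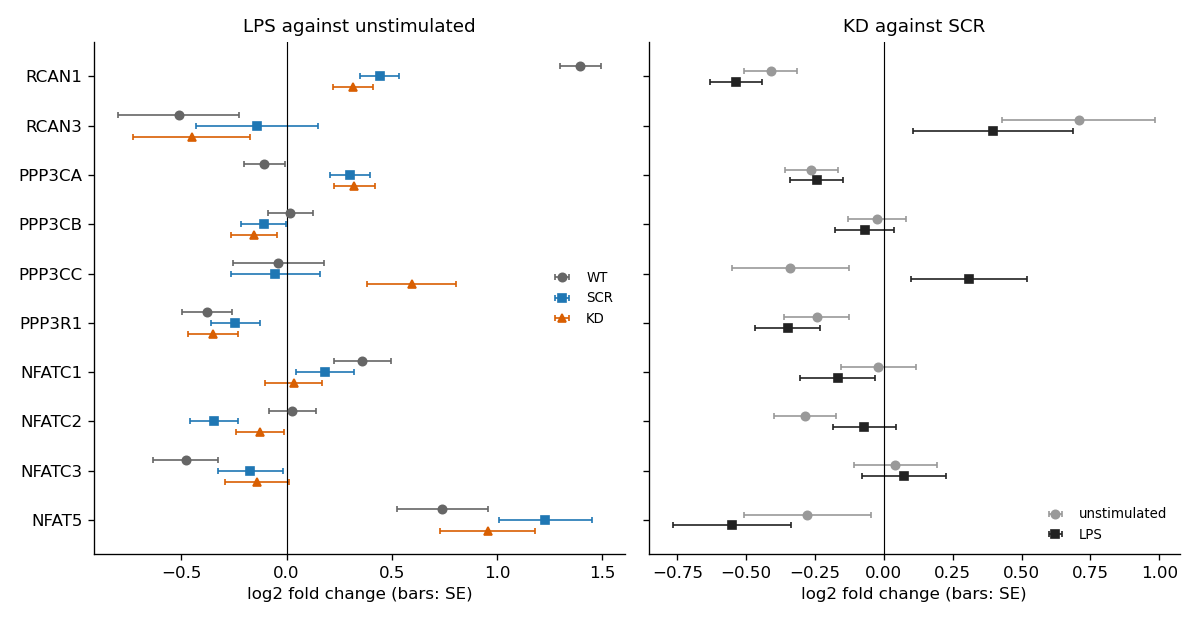
Log2 fold changes (horizontal axes) with SE bars for the 10 members (rows), for LPS against unstimulated cells of each kind (left) and for KD against SCR in each state (right). RCAN1 changes by 1.40 in WT against 0.44 in SCR and 0.32 in KD, and is below 0 in KD against SCR in both states.

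The remainder of the pathway was read from gene lists. Of 16 genes of calcium entry and calmodulin 15 were tested, and the count called with LPS was 0 higher and 3 lower in WT, 1 higher and 3 lower in SCR, and 2 higher and 2 lower in KD. Of all genes tested 7.01%, 8.64% and 6.41% were called higher and 7.26%, 8.56% and 5.05% lower. The median log2 difference of the list was -0.25, -0.24 and -0.02, against -0.03, -0.03 and -0.003 over all genes tested. ORAI3, a calcium release-activated channel subunit, fell with LPS from 41.8 ± 1.12 to 23.4 ± 2.67 CPM in WT (adjusted p = 0.000106), and fell by 0.86 on the log2 scale in SCR and 0.65 in KD. STIM1, the calcium sensor of the endoplasmic reticulum that opens such channels, fell with LPS from 106 ± 13.1 to 75.6 ± 7.80 CPM in WT (adjusted p = 0.0114). It differed by -0.38 in SCR and by -0.40 in KD, where the libraries with and without LPS overlapped. The related gene STIM2 went the other way in KD, from 17.1 ± 2.24 CPM without LPS to 27.7 ± 2.06 CPM with LPS, with no overlap. In WT, STIM2 stood at 29.2 ± 2.48 CPM without and 26.9 ± 3.08 CPM with LPS.

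In SCR against WT without LPS this list had 0 genes higher and 2 lower, where 1.78% of all genes were higher and 1.45% lower. They were TRPM7, a channel with a kinase domain, at -0.39 on the log2 scale (adjusted p = 0.0216), and STIM2, a second sensor of calcium stores, at -0.53 (adjusted p = 0.0290). In KD against WT it had 0 higher and 4 lower without LPS, and 3 higher and 2 lower with LPS. Of all genes 5.85% were higher and 5.85% lower without LPS, and 6.29% were higher and 4.55% lower with LPS. CALM3, a calmodulin gene, was lower in both states, by 0.48 and by 0.40 on the log2 scale, whereas CALM2, which encodes the same protein, was higher with LPS, at 322 ± 23.1 CPM in KD against 149 ± 42.7 CPM in WT (adjusted p = 0.0141). CALM2 has processed pseudogenes, so its counts are uncertain. In KD against SCR 0 of the 15 passed in either state.

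Of 12 other calcineurin paralogues, inhibitors and anchors 9 were tested. CHP1, a calcineurin-like protein that can inhibit the enzyme, was higher in KD than in WT without LPS, at 54.8 ± 6.52 against 42.4 ± 2.48 CPM (adjusted p = 0.0417), and with LPS, at 52.4 ± 2.16 against 38.2 ± 0.598 CPM (adjusted p = 0.0177). HOMER3, a scaffold that binds NFAT, was lower without LPS in SCR, at 161 ± 22.8 CPM, and in KD, at 160.2 ± 38.5 CPM, than in WT, at 251 ± 67.1 CPM. In WT it was the 1 gene of the list that fell with LPS, to 169 ± 1.05 CPM (adjusted p = 0.0237). With LPS 0 of the 9 passed in SCR, and 1, HOMER2, fell in KD. Of all genes, 14.3%, 17.2% and 11.5% passed with LPS in WT, SCR and KD, close to these counts among 9 genes. In KD against WT 11.7% of all genes passed without LPS and 10.8% with LPS. In SCR against WT without LPS 3.23% did.

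Of 11 kinases and transport factors that return NFAT to the cytoplasm or carry it, 10 were tested, and 1 passed with LPS in each kind of cell, which among 10 genes is close to the shares of all genes given above (14.3%, 17.2% and 11.5%). GSK3B, a kinase that promotes NFAT export, fell in WT by 0.53 on the log2 scale (adjusted p = 0.0303). XPO1, the exportin, rose in SCR by 0.31 (adjusted p = 0.0304), and DYRK2, another NFAT kinase, rose in KD by 0.76 (adjusted p = 0.00179). Of 11 other calcineurin substrates all 11 were tested, and LPS left 0 higher and 1 lower in WT, 2 higher and 1 lower in SCR, and 1 higher and 1 lower in KD. Of all genes 7.01% were higher and 7.26% lower in WT, 8.64% and 8.56% in SCR, and 6.41% and 5.05% in KD. The counts among 11 genes are close to these shares. MEF2D, a transcription factor, fell with LPS by 0.70 in WT (adjusted p = 0.000811) and by 0.68 in SCR (adjusted p = 0.00125). DNM1L, a mitochondrial fission enzyme, and CRTC3, a CREB coactivator, rose in SCR by 0.46 (adjusted p = 0.00851) and 0.44 (adjusted p = 0.0267). In KD the coactivator CRTC2 rose by 2.26 (adjusted p = 0.0396), with overlapping libraries, and MEF2C fell by 0.37 (adjusted p = 0.0238). CRTC2 was also the 1 substrate that passed in KD against WT with LPS, where 10.8% of all genes did, higher by 2.40 (adjusted p = 0.0373). Between KD and SCR 0 genes of either list passed in either state.

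Of 17 genes named as NFAT targets only 7 had enough counts to be tested. The T cell products IL2, IL3, IL4, IFNG, CSF2 and FASLG had 0 counts in all 18 libraries. LPS raised 4 of the 7 in WT cells and 3 of the 7 in SCR as well as KD cells, and lowered 0, where 7.01%, 8.64% and 6.41% of all genes rose. The list was written with earlier results of these data known, and TNF had also served as the check of LPS. Genes low without LPS could pass the count filter through their LPS libraries. These counts are therefore a description and no test of NFAT activity. EGR2, a zinc finger factor, rose from 1.20 ± 0.753 to 6.99 ± 0.922 CPM in WT, and F3, tissue factor, from 12.8 ± 0.466 to 25.0 ± 6.70 CPM. On the log2 scale the rise of TNF was 3.16 in WT, 1.73 in SCR and 1.40 in KD. Several of these genes, TNF among them, are also targets of NF-kB, and which factor drove them was not tested.

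TNF and EGR2 were the 2 targets that were higher without LPS in SCR than in WT, by 1.46 (SE 0.15, adjusted p = 9.4e-06) and 1.43 (SE 0.36, adjusted p = 0.0321) on the log2 scale, and in KD than in WT, by 1.45 and 1.27. Of all genes 1.78% were higher in SCR and 5.85% in KD than in WT without LPS. The list of targets was chosen with earlier results of these data known, so its counts and p-values are a description. SCR against WT without LPS is also the comparison on which RCAN1 was selected, so these differences are not independent support. TNF stood at 15.9 ± 3.01 CPM in unstimulated WT, 43.3 ± 7.10 CPM for SCR and 43.2 ± 7.53 CPM for KD. Between KD and SCR without LPS, TNF differed by -0.003 on the log2 scale (SE 0.15, adjusted p = 0.996). NFKBIA stood without LPS at 252 ± 13.8 CPM for WT, 390.0 ± 27.5 CPM for SCR and 292 ± 40.1 CPM for KD. The LPS response of TNF was smaller in SCR than in WT by 1.42 (SE 0.21, adjusted p = 0.00210).

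Of 6 genes named as osmotic targets of NFAT5, 5 were tested. With LPS, 2 were called higher and 2 lower in WT, and 2 higher and 1 lower in SCR and in KD. Of all genes tested 7.01%, 8.64% and 6.41% were called higher and 7.26%, 8.56% and 5.05% lower in WT, SCR and KD. SLC38A2, an amino acid transporter, fell with LPS from 358 ± 25.4 to 95.7 ± 9.20 CPM in WT, from 312 ± 19.2 to 86.1 ± 1.91 CPM in SCR and from 268 ± 6.11 to 87.4 ± 5.38 CPM in KD. HSPA4L, a heat shock protein, rose from 11.9 ± 2.27 to 21.3 ± 0.663 CPM in WT and passed in SCR and KD as well. SLC6A6, the taurine transporter, rose in SCR by 0.82 (adjusted p = 0.0244) and in KD by 1.40 (adjusted p = 0.000662), and AKR1B1, aldose reductase, rose in WT by 0.47 (adjusted p = 0.0129). The other gene that fell in WT was SLC6A12, at -2.42 on the log2 scale, from only 154 counts over the 18 libraries. The list thus moved in both directions while NFAT5 rose.

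RCAN1 was finally set beside all other genes. Across the 18 libraries, Pearson's r of log2 CPM (prior count 2) with RCAN1 was highest for KLHL5 at 0.924, FANCB at 0.919, IL32 at 0.911, FTH1 at 0.910 and TIFAB at 0.909, among 16677 genes. It was lowest for ATP2B4 at -0.904, RAB11FIP1 at -0.903 and NIPAL3 at -0.894. The libraries share groups, so these values describe a pattern over 6 conditions and carry no p. FTH1, the ferritin heavy chain, rose from 2422 ± 301 CPM in unstimulated WT to 5604 ± 56.9 CPM with LPS, and has many pseudogenes that could share its reads. ATP2B4, a pump that moves calcium out of the cell, ran the other way, from 102 ± 2.22 CPM in unstimulated WT to 61.9 ± 3.83 CPM with LPS. IL32, a cytokine, had a low level, with a mean of 0.221 CPM in unstimulated WT and 5.39 CPM in SCR with LPS.

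**Figure D4:**
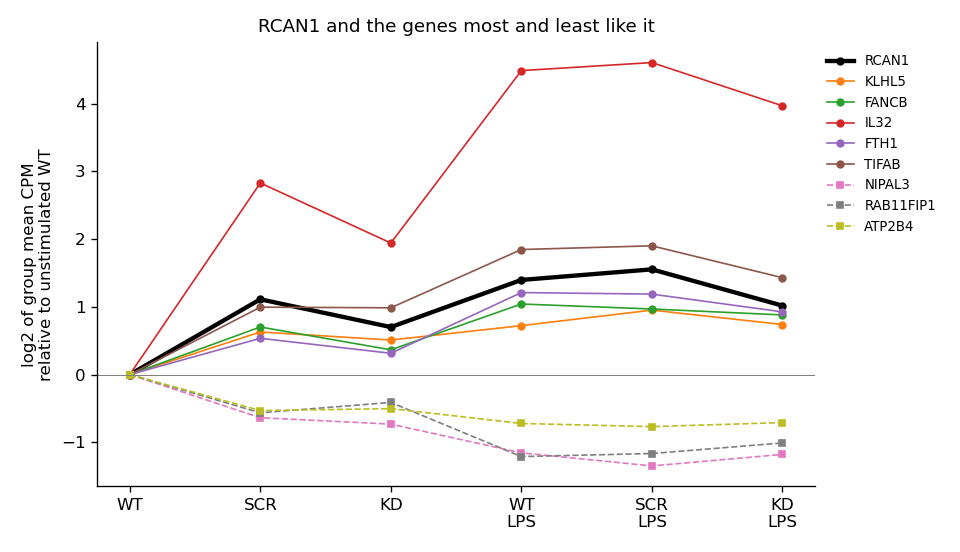
Log2 of the group mean CPM relative to unstimulated WT (vertical axis) over the 6 groups (horizontal axis) for RCAN1 (thick line), the 5 genes most like it (solid lines) and the 3 least like it (dashed lines). IL32 has the widest range, and ATP2B4, RAB11FIP1 and NIPAL3 are below 0 in every other group.

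No other member was close to RCAN1 in this ranking. NFAT5 had r = 0.526 and rank 1591, followed by NFATC1 at 0.373, PPP3CC at 0.224 and PPP3CA at 0.111. At the other end, PPP3R1 had r = -0.469, RCAN3 had r = -0.551 and NFATC3 had r = -0.653 and rank 15968.

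The genes around RCAN1 on chromosome 21 were examined for a shared change. Of 25 annotated genes that start within 500000 bases of its span 5 were tested, and KCNE1 was the 1 that passed in SCR against WT. KCNE1 (ENSG00000180509, chr21:35818986-35884512, minus strand), a potassium channel subunit, lies just downstream of RCAN1 on the same strand. A further annotated coding gene on that strand, ENSG00000288711 at chr21:35883420-35987212, spans most of RCAN1 and reaches into KCNE1. It was not among the counted genes, so whether its reads entered either count could not be worked out. KCNE1 stood at 7.57, 6.45 and 9.61 CPM in unstimulated WT, at 13.6, 13.2 and 12.0 CPM for SCR and at 17.3, 16.0 and 14.5 CPM in KD. The 3 groups did not overlap, and the order differed from that of RCAN1, since KD was highest. SCR exceeded WT by 0.70 on the log2 scale (SE 0.15, adjusted p = 0.0151) and KD exceeded WT by 1.00 (SE 0.15, adjusted p = 0.000294). With LPS its group means were 13.5 CPM for WT, 13.2 CPM for SCR and 13.0 CPM for KD.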

How the data were processed

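THP-1 cells were profiled in 18 libraries, 3 per group, made with a QuantSeq 3′ kit. The authors removed low-quality, adaptor and poly-A reads, aligned to GRCh37 with HISAT and counted with featureCounts over the end of each Ensembl gene; the version of HISAT and the strand setting are not given in the sources used here. The deposited values are raw read counts, and all value columns were used. Symbols were matched by GENCODE v44lift37 (55665 of 63677 identifiers).

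Counts were filtered with filterByExpr by group and fitted in 1 model with a mean per group (edgeR 4.0.16, R 4.3.3, TMM, quasi-likelihood F test, Benjamini-Hochberg over 16678 genes, threshold 0.05); DESeq2 1.42.0 was an alternative. The fit was tested on simulated data. The members and gene lists were chosen with earlier results of these data known. Named genes were all members, TRAFD1, the LPS checks TNF, IL1B and NFKBIA, at most 4 genes per list and comparison with the smallest adjusted p past 0.05, the 5 genes most and 3 least like RCAN1, and neighbours within 500000 bases that passed in SCR against WT. For a single gene an exact permutation test with 3 against 3 could reach no p under 0.1. Replicate numbers gave correlated deviations in every pair only in SCR against WT with LPS (0.163 to 0.261), where the block called 135 genes in place of 19 and changed the call of 0 members.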

Additional observations from a re-analysis of the deposited data

Results flagged for a closer look

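RCAN1 moved in opposite directions in KD against WT in the 2 states, with no overlap between the libraries in either. It was higher in KD by 0.70 on the log2 scale without LPS and differed by -0.38 with LPS. The difference between the 2 states was not tested, since the libraries without LPS were among those on which RCAN1 was selected.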

How the results depend on the processing

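RCAN1 kept its direction in every comparison and alternative run, and 0 results reversed. In KD against SCR with LPS its difference passed the threshold at -0.55 with no filter, -0.53 with the replicate block, -0.54 with the libraries of the comparison alone and -0.55 with DESeq2. Leaving out 1 library gave -0.58 to -0.46, and the difference did not pass in any of those fits. In KD against WT with LPS leaving out 1 library gave -0.42 to -0.34. The LPS rise of RCAN1 in KD no longer passed at 0.26 with library totals, 0.31 with no filter and 0.31 with the libraries alone, and leaving out 1 library gave 0.27 to 0.36. Of the 9 other members, the number called in KD against WT without LPS ran from 0, with the libraries alone, to 3 over the alternatives. With LPS it was 2 with RLE, 2 with totals, 3 with the block, 3 with the libraries alone and 2 with DESeq2. With LPS against medium the alternatives gave 2 to 3 in WT, 1 (with no filter) to 3 in SCR and 0 (with the libraries alone) to 3 in KD. Leaving out 1 library gave 1 to 3 and 0 to 1 called in KD against WT without and with LPS, and 0 to 2 in WT, 1 to 2 in SCR and 1 to 4 in KD for LPS. The causes were not tested, beyond the fewer samples fitted. No replicate block could be fitted for LPS against medium, since those libraries share no numbers, and elsewhere the block lost no call of a member. NFAT5 and RCAN3 rest on few counts per library, which limits their precision.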
